A study of Mus musculus with 34 samples.

Results

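SMAD4 was mapped by chromatin immunoprecipitation sequencing (ChIP-seq) in mouse bone marrow-derived macrophages (BMDM) and in nuclei of Kupffer cells, the resident macrophages of the liver. The intervals described here carried a SMAD4 peak in both BMDM libraries and in neither library of Kupffer cell nuclei. Peaks of the BMDM lists that overlapped by at least 1 bp were merged into 16969 reproducible intervals, and the 4817 of them (28.4%) that overlapped no Kupffer peak are called BMDM-only intervals. They were set beside the other 12152 reproducible BMDM intervals (71.6%), which overlapped a Kupffer peak and are called shared, and beside 5337 Kupffer-only intervals, which had a peak in both Kupffer lists and in no BMDM list. The intervals were selected on the SMAD4 peak lists alone, so every SMAD4 value here is a description with no test. H3K27 acetylation (H3K27ac), RBPJ and LXR were not used in the choice.

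Each group held 2 libraries. For SMAD4, BMDM were grown without treatment for 4 days from C57BL/6J bone marrow, and Kupffer cell nuclei came from untreated mice labelled Clec4f-cre, which the list headers name as C57BL/6J. The headers name different libraries for the Kupffer lists, and that of replicate 2 has rep1 in its name. H3K27ac was measured in Kupffer cells, in repopulating liver macrophages (RLM), in blood Ly6C-high monocytes of C57BL/6J mice, and in 4-day C57BL/6J BMDM with DLL4, a Notch ligand, for 24 h or without it. The RLM were taken 24 h after diphtheria toxin from Clec4f-cre/Rosa26iDTR mice. In these mice Cre under the Clec4f promoter, which is active in Kupffer cells, switches on the toxin receptor, so the toxin kills resident Kupffer cells and incoming cells refill the liver. The Kupffer cells of the H3K27ac set are given as C57BL/6J in the sample labels and as Clec4f-Cre/DTR mice in the series text, and no toxin is recorded for them. RBPJ was mapped in the same kinds of sample as SMAD4. LXR was mapped in 7-day C57BL/6J BMDM given the LXR agonist GW3965 for 18 h and in untreated Kupffer cells of Clec4f-cre mice. Strain, culture, and whole cells against sorted nuclei therefore differed between BMDM and Kupffer samples of SMAD4, and the contributions of these to a BMDM-only interval cannot be told apart from cell type. The labels do not say if the libraries of a group are distinct animals or cultures, and the tests therefore rest on a between-library spread that may be only technical.

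SMAD4 is the common partner of the receptor-activated SMADs. Ligands of the TGF-beta and BMP families bind pairs of receptor kinases, which phosphorylate receptor SMADs, and these enter the nucleus with SMAD4 and bind DNA at short SMAD elements, often next to lineage-determining factors such as PU.1, C/EBP and AP-1. In the liver, TGF-beta and BMP signals are known to act on Kupffer cell identity together with Notch signals, which work through RBPJ, and with LXR-alpha, a nuclear receptor of oxysterols. H3K27ac marks active promoters and enhancers.

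Of the BMDM-only intervals, 340 overlapped the promoter window of a gene (250 bases before to 50 bases after its start, RefSeq, GRCm38.p6), and 95 lay wholly inside one. The stretches that follow were picked, after their values were seen, because H3K27ac over them differed between groups or because the gene marks monocytes or lipid-handling macrophages. They are written along the gene's strand, with the SMAD half-site CAGAC or its reverse GTCTG, the AP-1 motif TGANTCA and the RBPJ motif GTGGGAA or its reverse TTCCCAC in capitals. A run of such letters is a match and was not shown to be a bound site.
Cx3cr1, fractalkine receptor of monocytes, chr9:120068247-120068356, minus strand: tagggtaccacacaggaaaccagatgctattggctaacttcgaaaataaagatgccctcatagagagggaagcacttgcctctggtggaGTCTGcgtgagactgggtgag
Ifitm6, interferon-induced membrane protein, chr7:141016843-141017032, minus strand: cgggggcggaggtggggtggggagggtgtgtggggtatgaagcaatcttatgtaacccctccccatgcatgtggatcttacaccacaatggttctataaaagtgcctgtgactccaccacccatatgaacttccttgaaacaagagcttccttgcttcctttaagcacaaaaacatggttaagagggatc
S100a6, calcium-binding protein, chr3:90612644-90612927, plus strand: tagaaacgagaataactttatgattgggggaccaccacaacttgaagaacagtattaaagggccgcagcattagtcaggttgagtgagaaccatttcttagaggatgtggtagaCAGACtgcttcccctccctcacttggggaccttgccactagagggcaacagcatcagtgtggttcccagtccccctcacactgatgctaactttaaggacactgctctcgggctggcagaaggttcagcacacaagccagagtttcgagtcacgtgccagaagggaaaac
Cdkn1a, the cell cycle inhibitor p21, chr17:29093626-29093818, plus strand: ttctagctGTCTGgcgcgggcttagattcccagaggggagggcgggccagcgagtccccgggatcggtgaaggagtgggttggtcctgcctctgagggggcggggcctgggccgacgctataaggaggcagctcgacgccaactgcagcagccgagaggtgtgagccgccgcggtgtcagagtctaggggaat
Gpnmb, a glycoprotein of lysosomes and lipid-handling macrophages, chr6:49036439-49036567, plus strand: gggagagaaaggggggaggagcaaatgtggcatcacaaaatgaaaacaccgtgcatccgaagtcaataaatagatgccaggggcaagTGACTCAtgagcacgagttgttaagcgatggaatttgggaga
Cd244a, a SLAM family receptor, chr1:171559033-171559207, plus strand: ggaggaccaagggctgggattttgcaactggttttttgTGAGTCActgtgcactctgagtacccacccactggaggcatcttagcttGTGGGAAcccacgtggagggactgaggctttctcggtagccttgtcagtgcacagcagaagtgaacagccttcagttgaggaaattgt
Clec4e, the receptor Mincle, chr6:123289828-123290065, minus strand: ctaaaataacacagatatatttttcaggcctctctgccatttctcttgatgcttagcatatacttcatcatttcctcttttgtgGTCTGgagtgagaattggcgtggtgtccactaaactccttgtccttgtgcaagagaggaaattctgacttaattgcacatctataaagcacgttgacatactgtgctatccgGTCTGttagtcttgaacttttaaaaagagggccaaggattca
Gm52482, a predicted gene whose promoter holds the interval nearest to Padi4, chr4:140787515-140787706, plus strand: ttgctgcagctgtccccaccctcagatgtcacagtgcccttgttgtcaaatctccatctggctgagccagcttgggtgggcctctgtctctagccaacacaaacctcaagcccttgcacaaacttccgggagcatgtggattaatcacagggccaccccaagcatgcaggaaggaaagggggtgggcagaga
A SMAD half-site match stood in the Cx3cr1, S100a6, Cdkn1a and Clec4e stretches, and an AP-1 match in those of Gpnmb and Cd244a. The Cd244a stretch also held an RBPJ match, and those of Ifitm6 and Gm52482 held none of these letters. Cd244a and Clec4e were added for their H3K27ac change with DLL4.

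The SMAD4 lists rested on 11.1 and 13.9 M tags in BMDM (37103 and 28593 peaks, with 18.10% and 14.68% of tags in peaks) and on 18.9 and 18.0 M tags in Kupffer cell nuclei (37180 and 25369 peaks, with 9.46% and 11.70% of tags in peaks). H3K27ac libraries held 8.22 and 19.5 M tags in regions in Kupffer cells, 7.37 and 9.47 M in RLM, 11.6 and 12.3 M in monocytes, 22.0 and 21.6 M in BMDM with DLL4 and 20.2 and 27.2 M in untreated BMDM. The marker genes of Kupffer cell identity summed to 5987 and 7362 CPM (H3K27ac tags per 1 M, TMM-scaled) in Kupffer cells, 1381 and 1370 CPM in RLM and 525 and 478 CPM in monocytes over 257 regions. Hepatocyte markers summed to 39.6 and 45.1 CPM in Kupffer cells, 16.9 and 18.6 CPM in RLM and 14.5 and 16.0 CPM in monocytes over 6 regions. Dendritic cell markers summed to 736 and 908 CPM in Kupffer cells, 277 and 251 CPM in RLM and 357 and 349 CPM in monocytes over 67 regions, and endothelial markers to 225 and 252 CPM in Kupffer cells, 154 and 141 CPM in RLM and 197 and 178 CPM in monocytes over 40 regions. Stellate cell markers ranged from 14.2 to 29.1 CPM over 7 regions. Neutrophil markers ranged from 43.0 to 51.8 CPM over 28 regions, and lymphocyte markers were at 26.6 and 27.2 CPM in Kupffer cells, 51.4 and 37.6 CPM in RLM and 60.9 and 81.3 CPM in monocytes over 11 regions. In the BMDM table, dendritic cell markers summed to 759 and 737 CPM with DLL4 and 424 and 427 CPM without over 59 regions, and endothelial markers to 287 and 288 CPM with DLL4 and 210 and 204 CPM without over 42 regions. BMDM-only intervals lay nearest to 3 of 10 dendritic cell genes (30.0%) and 4 of 12 endothelial genes (33.3%), against 14.4% of all genes with a start. They lay nearest to 1 of 10 hepatocyte genes (Apoa1), 1 of 10 lymphocyte genes (Il7r) and none of 10 neutrophil or 10 stellate cell genes. The part of other cells in the results was not tested, and fewer cells with a mark cannot be told apart from less mark per cell in such bulk samples.

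The normalized tag count of a SMAD4 peak, in tags per 10 M, is the authors' value. Averaged over both BMDM lists, BMDM-only intervals had a median of 44.7, with quartiles of 34.85 and 60.3 and a range of 12.4 to 299.4. Shared intervals had a median of 56.6 in BMDM, with quartiles of 41.1 and 80.7 and a highest value of 928.6. The BMDM-only class therefore held weaker peaks on average but was not made of the weakest peaks alone. Over the 4817 BMDM-only intervals, the counts of the BMDM lists had a Spearman correlation of 0.41, against 0.56 over shared intervals, and 82.2% and 82.3% of intervals in these classes were within 2-fold between the lists. Intervals that fell just inside the rule, 91 with a Kupffer peak 1 to 50 bp away, had a median of 49.0, and 195 just outside it, with at most 50 bp of overlap, had 49.05. A Kupffer peak lay within 100 bp of 157 BMDM-only intervals and within 1000 bp of 891. The rule depends on how many peaks each list holds: with absence required from the second Kupffer list alone there were 7897 such intervals, with the first alone 5633, and with BMDM peaks of at least 8-fold over input 2611 of 9882.

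The BMDM-only interval with the highest average lay 88 bp from the start of Il21r, the interleukin 21 receptor, at 258.4 and 340.4 tags per 10 M. Next came intervals in the body of Syngr1 with 346.3 and 191.0, in Irak2, a kinase of interleukin 1 and Toll-like receptor signalling, with 261.1 and 261.4, and 35289 bp from the start of Tmem230 with 276.4 and 232.0. Intervals in Ppcdc (340.1 and 140.8), Aopep (201.0 and 242.7), Kdm1a (299.7 and 142.9) and Dop1b (267.4 and 136.4) followed. An interval 75141 bp from the start of Vsig4, a complement receptor that marks Kupffer cells, had 214.4 and 194.6 in BMDM with the nearest Kupffer peak 21294 bp away. The remaining interval of the first 10, chr17:39847444-39847618, had 183.9 and 256.4 but no reproducible RBPJ or LXR peak in either cell type, and its fold over input was 10.4 and 13.5. The deposited H3K27ac tables annotate it as an exon of a non-coding RNA, and whether its tags come from several copies of a repeated sequence was not tested, so its value is uncertain. The Kdm1a interval had H3K27ac of 1.31 and 1.76 CPM in Kupffer cells, 2.23 and 2.74 CPM in RLM, 1.57 and 1.07 CPM in monocytes, 1.58 and 0.571 CPM in BMDM with DLL4 and 1.99 and 1.66 CPM in untreated BMDM. A strong SMAD4 peak thus stood there with H3K27ac at or under 2.74 CPM in every library. The Aopep interval had 0.358 and 0.411 CPM in Kupffer cells, 5.12 and 2.13 CPM in RLM and 1.24 and 0.660 CPM in monocytes, against 67.5 and 79.2 CPM in BMDM with DLL4 and 86.7 and 95.1 CPM in untreated BMDM. Values of the BMDM and the other H3K27ac libraries come from tables normalised separately and are set side by side without a test.

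BMDM-only intervals were mostly distal. Distances were measured to the starts used for nearest genes, which did not include those of some predicted genes. The interval in the Gm52482 promoter was thus counted at 13407 bp, the distance to Padi4. Over 3 kb from any start used lay 81.5% of BMDM-only intervals (3927), against 64.6% of shared and 65.7% of Kupffer-only intervals. Within 500 bp of a start lay 7.72% (372), against 24.9% and 24.3%, and the median distance was 18152 bp, against 9518 and 12922 bp. In a gene body lay 59.1%, against 64.2% and 63.7%. A gene start stood within 100 kb of 4253 BMDM-only intervals, and these nearest genes numbered 2843, or 14.4% of the 19772 genes with a start. Of these genes, 1805 (63.5%) were also nearest to a shared interval, 799 (28.1%) to a Kupffer-only interval and 849 (29.9%) to neither. Most had a single interval (1997 genes), while Plec and Sgms1 had 9 each and Slc41a2, Tns3, Ankrd11 and Niban2 had 8 each. Plec encodes plectin, a cytoskeletal linker, and Sgms1 encodes a sphingomyelin synthase. Slc41a2 had no shared interval and Sgms1 had 12. These genes were named after their counts were seen, and nearness does not show that an interval acts on a gene.

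H3K27ac was deposited as raw tags over regions of 2000 bp, in a table of 84647 regions for Kupffer cells, RLM and monocytes (the liver and blood table) and a table of 95038 regions for BMDM. The BMDM table held 95.3% of BMDM-only intervals (4589), against 99.6% of shared and 83.3% of Kupffer-only intervals. The liver and blood table held only 75.0% of them (3612), against 97.4% and 93.5%. Of the 5002 regions in that table that overlapped a BMDM-only interval, 20.8% came from the monocyte and RLM peak lists but not the Kupffer list, against 11.6% of all regions and 4.48% of those with a shared interval. Regions of the Kupffer list alone made up 7.74%, close to the 7.58% of those with a shared interval, against 25.7% of those with a Kupffer-only interval and 17.1% of all regions. A region can hold several intervals and can overlap its neighbour, so regions are not independent.

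Within the liver and blood table, the median H3K27ac over BMDM-only intervals was lowest in Kupffer cells. The median region had 3.22 and 2.93 CPM in Kupffer cells, 3.81 and 3.96 CPM in RLM and 4.38 and 4.29 CPM in monocytes. In the BMDM table, normalised separately, it had 9.02 and 8.99 CPM with DLL4 and 10.1 and 10.1 CPM without. Both Kupffer libraries lay below all RLM and monocyte libraries at the median but not at the upper quartile, which was 15.3 and 17.8 CPM in Kupffer cells, 11.3 and 11.6 CPM in RLM and 13.7 and 14.4 CPM in monocytes. Values over these intervals thus spread more widely in Kupffer cells, as did those over all tested regions. There the lower quartile was 1.07 and 0.939 CPM in Kupffer cells, 1.58 and 1.52 CPM in RLM and 1.41 and 1.16 CPM in monocytes. The upper quartile was 16.7 and 18.7 CPM, 10.4 and 10.5 CPM, and 11.5 and 12.2 CPM in the same groups. Both DLL4 libraries lay below both untreated ones. The share of a library's tags that fell in these regions was 5.74% and 5.94% in Kupffer cells, 5.89% and 5.94% in RLM, 6.76% and 6.74% in monocytes, 10.5% and 10.6% in BMDM with DLL4 and 11.3% and 11.4% in untreated BMDM. Regions of Kupffer-only intervals ran the other way in the first table, with medians of 15.0 and 16.0 CPM in Kupffer cells, 6.31 and 6.10 CPM in RLM and 5.54 and 5.86 CPM in monocytes.

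**Figure D1:**
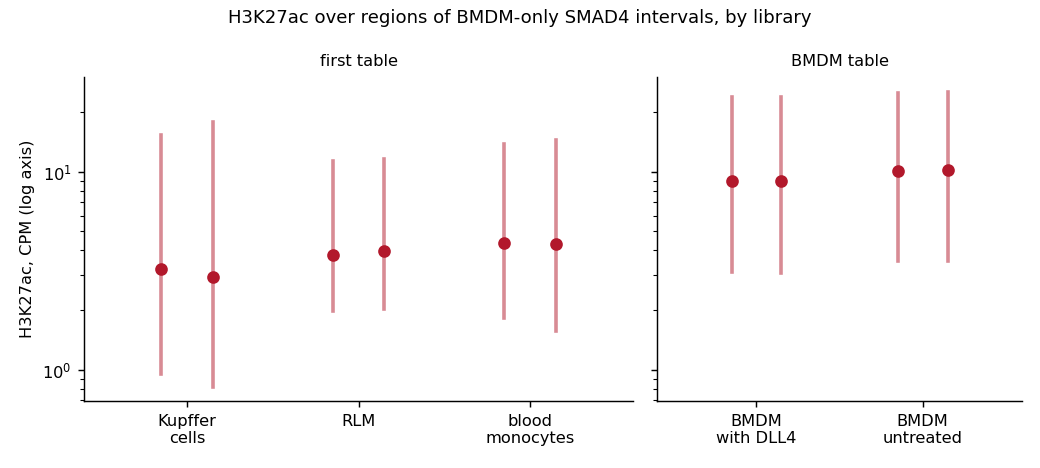
H3K27ac over regions that overlap a BMDM-only SMAD4 interval, in CPM on a log axis, for each of the 2 libraries per group; points are medians and bars run between the quartiles over 4925 tested regions (left) and 6205 tested regions (right). Medians sit near 3 CPM in Kupffer cells, near 4 CPM in RLM and monocytes, and between 8.99 and 10.1 CPM in BMDM, whose table was normalised separately.

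Kupffer cells against monocytes sets the enhancers of resident liver macrophages beside those of circulating monocytes, which supply new macrophages after depletion. Over BMDM-only intervals, H3K27ac was lower in Kupffer cells in 1453 of 4925 tested regions (29.5%) and higher in 921 (18.7%) by edgeR's quasi-likelihood test, at an adjusted p under 0.05 and at least 2-fold. Of all 80982 tested regions, 17.7% were lower and 24.9% were higher, so both shares departed from the background, towards lower. Regions of shared intervals were lower in 12.0% and higher in 30.5%, and those of Kupffer-only intervals were lower in 7.96% and higher in 42.9%. The median log2 fold change was -0.37 over BMDM-only intervals (quartiles -1.51 and 0.69), against 0.31 for shared, 0.71 for Kupffer-only and -0.06 for all regions. Counted by interval, 1117 of the 3539 BMDM-only intervals with a tested region (31.6%) touched a lower region and 644 (18.2%) a higher one. Where a region held BMDM-only intervals alone, a restriction added after the data were seen, 33.6% of 3944 regions were lower and 16.8% were higher, with a median of -0.55.

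Kupffer cells against RLM sets resident cells beside cells in the first day of refilling the liver, and it shares the Kupffer libraries with the comparison above. Over BMDM-only intervals 1212 of 4925 regions (24.6%) were lower in Kupffer cells and 765 (15.5%) were higher, against 13.9% and 22.3% of all tested regions. Shared intervals were lower in 5.84% and Kupffer-only intervals in 4.69% of their regions. Medians of the log2 fold change were -0.34 for BMDM-only, 0.44 for shared, 0.67 for Kupffer-only and -0.04 for all regions. The count of lower regions fell when the deeper Kupffer library was left out, which also removed a replicate. The parts of depth and of replication in this were not tested. Without Kupffer replicate 2, 14.4% of BMDM-only regions (715 of 4971) and 6.40% of all regions were lower. The median over BMDM-only regions was then -0.31. With scaling by total tags in place of TMM, the median of all regions moved by -0.11 against monocytes and by -0.14 against RLM, while the gap between BMDM-only and all regions stayed at -0.32 and -0.30.

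RLM against monocytes showed a smaller departure. In RLM, 693 of 4925 regions over BMDM-only intervals (14.1%) were lower and 503 (10.2%) were higher, against 9.14% and 8.57% of all tested regions. The median log2 fold change was -0.04, against -0.05 for shared, 0.14 for Kupffer-only and 0.07 for all regions. Shared intervals were called at much the same rate as BMDM-only ones, with 12.4% lower and 11.8% higher.

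DLL4 in BMDM asks how Notch ligand changes enhancers in the cell type that carries these SMAD4 peaks. Over BMDM-only intervals H3K27ac was lower with DLL4 in 328 of 6205 regions (5.29%) and higher in 188 (3.03%), against 2.64% and 4.89% of all 82089 tested regions. Shared intervals were lower in 1.31% and higher in 5.20% of their regions, and Kupffer-only intervals in 0.941% and 8.01%. The medians of the log2 fold change were small, at -0.13 for BMDM-only, 0.04 for shared, 0.07 for Kupffer-only and -0.02 for all regions. By interval, 296 of 4474 (6.62%) touched a lower region and 154 (3.44%) a higher one.

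**Figure D2:**
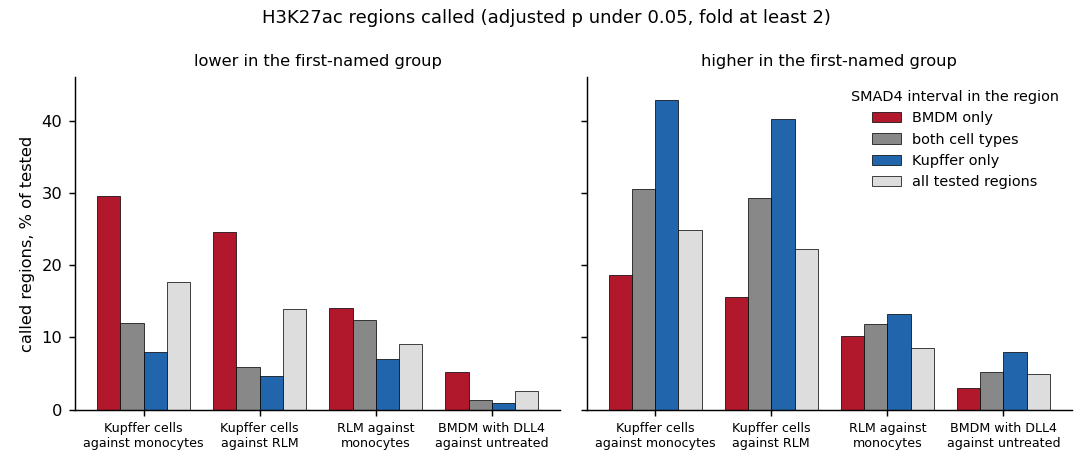
Percent of tested H3K27ac regions called lower (left) or higher (right) in the first-named group, for regions holding a BMDM-only, shared or Kupffer-only SMAD4 interval and for all tested regions; each bar is a percent of regions from 1 fit of 2 libraries per group. BMDM-only bars are the highest among the classes on the left, with 29.5% for Kupffer cells against monocytes and 24.6% against RLM, while Kupffer-only bars lead on the right with 42.9% and 40.3%.

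**Figure D3:**
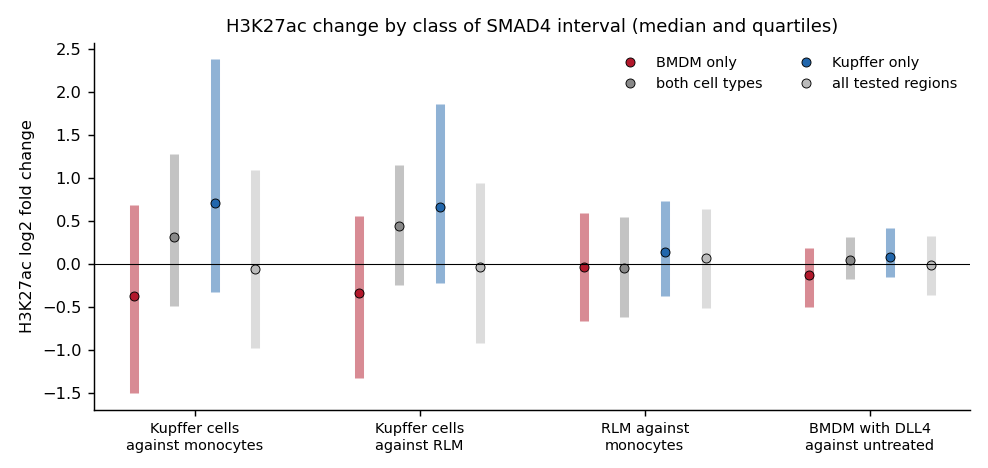
Median (points) and quartiles (bars) of the H3K27ac log2 fold change over regions of each class of SMAD4 interval, for the 4 comparisons. For Kupffer cells against monocytes, BMDM-only regions centre on -0.37 and Kupffer-only regions on 0.71, with bars that overlap widely.

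The H3K27ac difference varied within the class. BMDM-only intervals over 3 kb from a start were lower in Kupffer cells than in monocytes in 32.8% of regions and higher in 20.5%. Those within 500 bp of a start were lower in 19.6% and higher in 9.06%. Whether this contrast by distance is particular to BMDM-only intervals was not tested. Over 4 equal groups of intervals by SMAD4 tag count in BMDM, from the lowest to the highest, the lower share was 27.4%, 28.7%, 29.0% and 33.6%, and the higher share was 13.2%, 17.7%, 20.1% and 23.0%. Against monocytes, stronger SMAD4 intervals were thus called more often in both directions. Against RLM the lower share in these groups was 22.7%, 21.4%, 23.2% and 32.0%, and the higher share was 11.6%, 15.6%, 18.3% and 16.4%.

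Members were named by the size of the change, among called regions whose libraries separated fully and whose mean level lay above the median of all called regions. By this rule the largest falls in Kupffer cells against monocytes lay near Arhgef10l, Spef1l, Padi4, Rapgef4, Syne3 and Rab20. The interval shown above lies in the body of Padi3, 13407 bp from the start of Padi4, a histone citrullinating enzyme of myeloid cells. It had 0.596 and 0.0587 CPM in Kupffer cells, 6.70 and 7.72 CPM in RLM and 23.8 and 29.1 CPM in monocytes. BMDM had 15.6 and 15.1 CPM with DLL4 and 35.5 and 30.3 CPM without. Kupffer libraries were near 0, RLM were intermediate, and the log2 fold change against monocytes was -6.70 ± 0.46 (SE, adjusted p = 3.54e-21, edgeR). The Spef1l interval lies in the body of Adam8, a membrane metalloprotease, and had 0.835 and 0.117 CPM in Kupffer cells, 5.91 and 8.94 CPM in RLM and 43.0 and 43.8 CPM in monocytes (-6.85 ± 0.41, adjusted p = 2.35e-23). The interval 82921 bp from the start of Arhgef10l had 0.238 and 0.176 CPM in Kupffer cells, 4.73 and 6.91 CPM in RLM and 29.1 and 25.7 CPM in monocytes (-7.04 ± 0.46, adjusted p = 1.42e-22). At Syne3, which encodes nesprin-3 of the nuclear envelope, levels were 0.238 and 0.293 CPM in Kupffer cells, 2.36 and 2.23 CPM in RLM and 25.9 and 25.3 CPM in monocytes (-6.49 ± 0.44, adjusted p = 1.28e-21). RLM lay between the other groups, nearer to Kupffer cells. Rapgef4, an exchange factor activated by cyclic AMP, had 0.477 and 0 CPM in Kupffer cells, 1.58 and 2.95 CPM in RLM and 15.5 and 17.3 CPM in monocytes. Rab20, a small GTPase of endosomes, had 0.358 and 0.176 CPM in Kupffer cells, 1.31 and 1.32 CPM in RLM and 19.2 and 23.3 CPM in monocytes, with 0.976 and 2.23 CPM in BMDM with DLL4 and 2.67 and 1.38 CPM without. The Kupffer libraries held 0 to 7 tags at these 6 members, so the size of the falls is known only roughly.

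Against RLM the same rule named falls near Dennd4c, Myo5a, Arhgef10l, S100a6, Osbpl8 and Cdk9. The S100a6 promoter shown above had 0.477 and 0.293 CPM in Kupffer cells, 8.41 and 15.2 CPM in RLM and 23.6 and 20.4 CPM in monocytes, against 19.9 and 23.5 CPM in BMDM with DLL4 and 37.7 and 39.6 CPM in untreated BMDM. Kupffer cells were below every other library, with log2 fold changes of -5.02 ± 0.45 against RLM (adjusted p = 1.64e-15) and -5.90 ± 0.43 against monocytes (adjusted p = 4.83e-20). Near Cdk9, the kinase of transcription elongation factor P-TEFb, levels were 0.835 and 0.763 CPM in Kupffer cells, 17.6 and 19.6 CPM in RLM, 44.1 and 50.8 CPM in monocytes, 52.2 and 52.1 CPM in BMDM with DLL4 and 56.4 and 53.5 CPM in untreated BMDM. Myo5a encodes an actin motor of vesicle transport, and its interval had 0.715 and 0.352 CPM in Kupffer cells, 26.0 and 19.7 CPM in RLM and 30.4 and 41.0 CPM in monocytes (-5.54 ± 0.38 against RLM, adjusted p = 3.24e-20). An interval 37179 bp from Osbpl8, a lipid transfer protein, had 0.715 and 0.645 CPM in Kupffer cells, 19.6 and 23.3 CPM in RLM and 6.61 and 6.44 CPM in monocytes, with 61.7 and 65.0 CPM in BMDM with DLL4 and 78.1 and 79.0 CPM without. There RLM rose over monocytes (1.72 ± 0.29, adjusted p = 3.08e-06) while Kupffer cells fell below both. The Dennd4c interval had 0.238 and 0.528 CPM in Kupffer cells, 20.8 and 22.7 CPM in RLM and 15.1 and 32.4 CPM in monocytes. Kupffer libraries held 2 to 13 tags at these 6 members.

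Some BMDM-only intervals lay in regions with far more H3K27ac in Kupffer cells. At Mrc1, the mannose receptor, the interval 2268 bp from the start had 41.3 and 59.9 CPM in Kupffer cells, 0.920 and 1.73 CPM in RLM, 0.744 and 0.991 CPM in monocytes, 6.93 and 9.56 CPM in BMDM with DLL4 and 11.3 and 8.07 CPM in untreated BMDM. The log2 fold change was 5.85 ± 0.35 against monocytes (adjusted p = 2.33e-24, edgeR). The nearest Kupffer SMAD4 peak stood 1231 bp away, outside the tested H3K27ac region. Stard9, a kinesin, had a Kupffer SMAD4 peak 91 bp away and 48.4 and 64.0 CPM in Kupffer cells, 4.60 and 6.40 CPM in RLM and 1.90 and 0.413 CPM in monocytes (5.59 ± 0.35, adjusted p = 1.64e-21). Atp6v1a, the catalytic subunit of the lysosomal proton pump, had 46.9 and 54.7 CPM in Kupffer cells, 24.4 and 21.0 CPM in RLM and 1.24 and 1.16 CPM in monocytes (5.40 ± 0.31, adjusted p = 3.85e-25). Monocytes were the low group there, and BMDM had 60.6 and 61.0 CPM with DLL4 and 63.5 and 57.0 CPM without. Capzb (actin capping), Tmcc3 and Syt11 completed the list, with log2 fold changes of 5.34 ± 0.38, 5.04 ± 0.36 and 4.94 ± 0.43. Of the 6 members, 4 had a Kupffer SMAD4 peak 91 to 325 bp away, whereas the nearest to the Syt11 interval was 25088 bp away. Against RLM the highest were Mrc1, Afmid, Rassf3, Capzb, Sesn2 and Dip2b, with log2 fold changes of 3.37 to 5.21.

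RLM differed from monocytes in both directions. By the same rule the largest rises lay near Gpr157, Atp6v1a, Gdf15, Eya3, Arhgap10 and Bhlhe41. Gdf15, a stress-induced cytokine of the TGF-beta superfamily, had 21.3 and 27.7 CPM in RLM, 1.82 and 1.07 CPM in monocytes, 11.8 and 17.7 CPM in Kupffer cells, 21.1 and 22.6 CPM in BMDM with DLL4 and 17.5 and 15.0 CPM in untreated BMDM (4.08 ± 0.34 for RLM against monocytes, adjusted p = 3.85e-16). At Gpr157 the rise was seen in RLM, with 27.3 and 20.9 CPM, against 1.24 and 1.07 CPM in monocytes, while Kupffer cells had 2.38 and 1.11 CPM. The largest falls lay near Rab20, Pabpc1l, F13a1, Nfil3, Hsd11b1 and Plaur. F13a1, the coagulation factor XIII A chain of monocytes, had 0.657 and 0.914 CPM in RLM and 14.0 and 9.82 CPM in monocytes (-3.88 ± 0.45, adjusted p = 1.10e-10). Plaur, the urokinase receptor, had 5.91 and 2.95 CPM in RLM and 45.3 and 52.3 CPM in monocytes (-3.49 ± 0.29, adjusted p = 5.04e-16). Nfil3, a basic leucine zipper repressor, had 3.68 and 4.06 CPM in RLM and 51.2 and 47.1 CPM in monocytes, and Hsd11b1, which regenerates active glucocorticoid, had 1.31 and 1.12 CPM in RLM and 14.9 and 14.6 CPM in monocytes. At these 4 members Kupffer cells were at or under 1.06 CPM in both libraries.

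**Figure D4:**
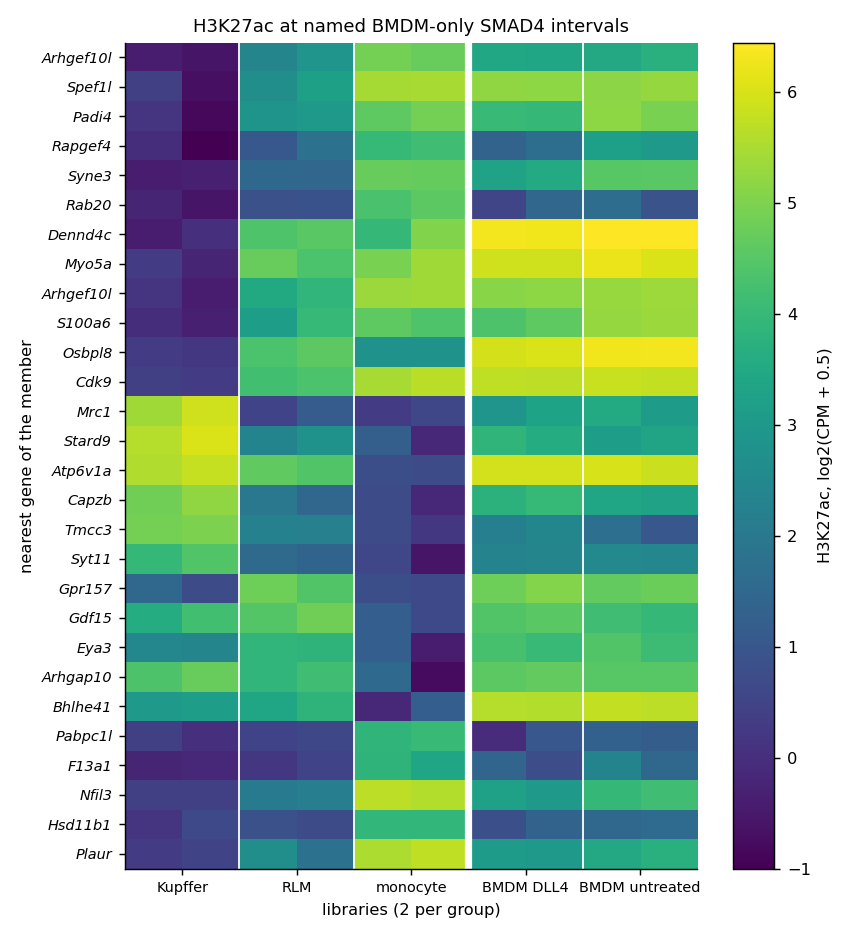
H3K27ac at 28 BMDM-only intervals named by the rule for the first table, as log2(CPM + 0.5), with a column for each of the 2 libraries per group and the nearest gene on each row; the thick white line parts the tables, which were normalised separately. Upper rows (Arhgef10l to Cdk9) are dark in Kupffer cells and the rows from Mrc1 to Syt11 are bright there. The BMDM columns are bright in rows of both kinds. Intervals at Afmid, Rassf3, Sesn2 and Dip2b, named only as higher in Kupffer cells than in RLM, are not drawn.

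With DLL4, H3K27ac rose near Runx3, Ascc1, Slc6a4, Sat1, Jaml and Sema4b. Runx3 encodes a transcription factor of the RUNX family, and its interval 40626 bp from the start had 20.6 and 24.7 CPM with DLL4 and 1.80 and 1.99 CPM without (3.57 ± 0.19, adjusted p = 1.46e-16). Ascc1 had 35.1 and 32.3 CPM with DLL4 and 3.64 and 2.93 CPM without (3.37 ± 0.15, adjusted p = 2.00e-18, edgeR). A Kupffer SMAD4 peak lay 12 bp from the Ascc1 interval, which also carried reproducible Kupffer peaks of RBPJ and LXR. The nearest Kupffer SMAD4 peak was 127 bp away at Cd244a and 275 bp at Sema4b, but 9822 bp at Runx3 and 31064 bp at Slc6a4. Slc6a4, the serotonin transporter, had 7.76 and 7.56 CPM with DLL4 and 1.26 and 1.12 CPM without, and has no region in the liver and blood table. The Cd244a promoter, with its AP-1 and RBPJ letters shown above, had 26.5 and 25.8 CPM with DLL4 and 8.12 and 8.25 CPM without (1.68 ± 0.14, adjusted p = 5.48e-12). It also had 3.46 and 2.93 CPM in Kupffer cells, 8.80 and 8.23 CPM in RLM and 7.69 and 11.1 CPM in monocytes, and the fall in Kupffer cells against monocytes was called (-1.57 ± 0.34, adjusted p = 5.45e-05). The largest falls with DLL4 lay near Rnf141, Lamc1, Cuedc1, Epn2, Med13l and Atp2b4. Rnf141 had 4.46 and 3.99 CPM with DLL4 and 20.3 and 21.1 CPM without (-2.29 ± 0.17, adjusted p = 4.67e-13), and Lamc1, the laminin gamma 1 chain, had 1.67 and 1.66 CPM with DLL4 and 5.93 and 8.32 CPM without (-2.10 ± 0.29, adjusted p = 6.20e-07). Both were also lower in Kupffer cells than in monocytes, with log2 fold changes of -4.09 and -3.14. The Clec4e promoter, which encodes a receptor for mycobacterial glycolipid and dead cells, had 5.62 and 6.51 CPM with DLL4 and 13.9 and 16.5 CPM without (-1.33 ± 0.18, adjusted p = 2.64e-07). In the other table it had 1.67 and 0.880 CPM in Kupffer cells, 7.62 and 13.6 CPM in RLM and 18.9 and 20.3 CPM in monocytes.

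Gene lists were set beside the shares over everything measured, where 14.4% of genes had a BMDM-only interval and 29.2% a shared one. Of all tested regions 24.9% were higher and 17.7% lower in Kupffer cells than in monocytes, 22.3% and 13.9% against RLM. Among 24 genes of the TGF-beta and BMP pathway itself, 4 had a BMDM-only interval nearest to them (16.7%, near the share over all genes): the receptors Tgfbr1 (3 intervals), Tgfbr2 (2) and Acvr1b (1), and the ligand Bmp2 (1). Of the 7 tested regions, 4 were higher and 1 lower in Kupffer cells than in monocytes, and none was called against RLM by edgeR or DESeq2, with 1 at an unadjusted p under 0.05. At Tgfbr1, the type I receptor of TGF-beta, the interval 1036 bp from the start had 7.75 and 8.56 CPM in Kupffer cells, 5.39 and 5.89 CPM in RLM and 1.16 and 1.24 CPM in monocytes, with 37.2 and 37.4 CPM in BMDM with DLL4 and 18.9 and 17.1 CPM in untreated BMDM. It was higher in Kupffer cells than in monocytes (2.76 ± 0.40, adjusted p = 9.78e-09) and higher with DLL4 (1.05 ± 0.10, adjusted p = 6.01e-10). Tgfbr2, the type II receptor, had 8.70 and 8.86 CPM in Kupffer cells, 5.52 and 4.98 CPM in RLM and 1.90 and 1.73 CPM in monocytes. Acvr1b, an activin receptor, was the one lower, with 0.715 and 0.645 CPM in Kupffer cells and 2.15 and 1.65 CPM in monocytes (adjusted p = 0.0463), a call that DESeq2 did not make. Known SMAD targets carried BMDM-only intervals at 10 of 24 genes (41.7%; 75.0% had a shared one), 18 intervals in all: Cdkn1a, Id2, Junb, Ltbp3, Rgs1, Ski, Smurf2, Tgfbi, Tgif1 and Thbs1. Of their 21 tested regions, 8 were higher and 7 lower in Kupffer cells than in monocytes (median -0.72), and 6 higher and 11 lower than in RLM (median -1.06). The Cdkn1a promoter had 8.82 and 6.34 CPM in Kupffer cells, 30.6 and 36.4 CPM in RLM and 37.1 and 33.0 CPM in monocytes (-2.24 ± 0.25, adjusted p = 3.24e-12). Tgfbi, a matrix protein induced by TGF-beta, had 0.715 and 0.763 CPM in Kupffer cells, 2.76 and 3.45 CPM in RLM and 2.40 and 2.81 CPM in monocytes, whereas Junb, an AP-1 subunit, had 24.0 and 35.8 CPM, 3.55 and 4.88 CPM and 4.96 and 1.65 CPM in the same groups.

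Monocyte genes with a BMDM-only interval numbered 5 of 20: Ccr2, Cx3cr1, F10, F13a1 and Ifitm6. By edgeR none of their 7 tested regions was higher in Kupffer cells than in monocytes, also at an unadjusted p under 0.05 or by DESeq2, and 5 were lower (median log2 fold change -2.48), and 5 were lower in RLM than in monocytes. The Cx3cr1 promoter had 2.03 and 3.11 CPM in Kupffer cells, 5.91 and 10.3 CPM in RLM and 17.2 and 20.1 CPM in monocytes, with 24.3 and 27.8 CPM in BMDM with DLL4 and 18.8 and 19.3 CPM in untreated BMDM (-2.80 ± 0.33, adjusted p = 1.37e-11). F10, coagulation factor X, had 0.238 and 0.352 CPM in Kupffer cells, 2.76 and 4.47 CPM in RLM and 4.63 and 5.78 CPM in monocytes. Ifitm6 stood apart, with 19.9 and 21.4 CPM in Kupffer cells, 2.76 and 7.21 CPM in RLM and 21.7 and 21.2 CPM in monocytes, where RLM was the low group, and with a Kupffer SMAD4 peak on the adjacent base. Kupffer identity genes with a BMDM-only interval numbered 5 of 24 (20.8%): Cd163, Cd5l, Folr2, Nr1h3 and Vsig4. A shared interval was nearest to 62.5% of the 24 genes and a Kupffer-only interval to 70.8%. Of 4 tested regions with a BMDM-only interval, 3 were higher and 1 lower in Kupffer cells against monocytes. Nr1h3, which encodes LXR-alpha, had 41.5 and 55.5 CPM in Kupffer cells, 21.8 and 21.3 CPM in RLM and 5.54 and 6.19 CPM in monocytes, and a Kupffer SMAD4 peak lay 6 bp from its interval. Cd5l, a secreted macrophage protein regulated by LXR, had 21.1 and 21.0 CPM in Kupffer cells, 4.20 and 4.98 CPM in RLM and 2.73 and 0.165 CPM in monocytes. The distal Vsig4 interval was the lower one, with 0.477 and 0.117 CPM in Kupffer cells, 1.97 and 2.74 CPM in RLM and 2.89 and 2.15 CPM in monocytes, against 30.8 and 36.9 CPM in BMDM with DLL4 and 33.8 and 36.8 CPM in untreated BMDM (-3.28 ± 0.70, adjusted p = 4.36e-05, Kupffer cells against monocytes).

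Genes of lipid-associated macrophages carried 27 BMDM-only intervals at 11 of 18 genes (61.1%), with 6 at Cd9 and 4 each at Ctsk and Gpnmb. A shared interval was nearest to 77.8% of these genes. Of 23 tested regions, 2 were higher and 8 lower in Kupffer cells than in RLM (median -0.70), and 2 higher and 6 lower than in monocytes (median -0.40). The Gpnmb promoter had 2.62 and 1.06 CPM in Kupffer cells, 12.7 and 16.6 CPM in RLM and 1.98 and 2.48 CPM in monocytes, against 149 and 151 CPM in BMDM with DLL4 and 137 and 131 CPM in untreated BMDM. RLM stood above both Kupffer cells and monocytes (-3.12 ± 0.38 for Kupffer cells against RLM, adjusted p = 2.42e-10, and 2.71 ± 0.37 for RLM against monocytes, adjusted p = 1.02e-08). Ctsk, the protease cathepsin K, had 0.835 and 1.17 CPM in Kupffer cells, 5.12 and 3.86 CPM in RLM and 2.15 and 2.89 CPM in monocytes, with 31.8 and 28.8 CPM in BMDM with DLL4 and 49.4 and 49.1 CPM in untreated BMDM. Capg, an actin-capping protein, had 9.90 and 12.6 CPM in Kupffer cells, 20.0 and 17.2 CPM in RLM and 41.6 and 45.3 CPM in monocytes. Matrix and adhesion genes had 35 intervals at 16 of 20 genes (80.0%; 85.0% had a shared one), among them Itga6 with 6, Emp1 with 5 and Cd44 with 4. Of their 28 tested regions, 10 were higher and 12 lower in Kupffer cells than in monocytes. Lmna, the nuclear lamin A/C, had 1.31 and 1.41 CPM in Kupffer cells, 4.60 and 4.47 CPM in RLM and 5.70 and 5.78 CPM in monocytes, and Cd44, the hyaluronan receptor, had 1.19 and 1.76 CPM, 2.23 and 3.35 CPM and 5.79 and 4.54 CPM in the same groups. The strongest interval near Itga5, an integrin alpha chain, had 181.2 and 122.1 SMAD4 tags per 10 M and no region in the liver and blood table.

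AP-1 and MiT family transcription factor genes had BMDM-only intervals at 13 of 18 genes (72.2%; 83.3% had a shared one). Of 33 tested regions, 9 were higher, a share near that of all regions, and 1 was lower in Kupffer cells than in monocytes, and 15 were higher and 2 lower than in RLM (median 0.88). Atf3 had 7.39 and 4.63 CPM in Kupffer cells, 3.81 and 4.37 CPM in RLM and 3.72 and 1.40 CPM in monocytes, and 30.4 and 36.4 CPM in BMDM with DLL4 against 15.9 and 16.9 CPM without (1.03 ± 0.11 for DLL4, adjusted p = 7.75e-09). With DLL4, where 4.89% of all regions were higher and 2.64% lower, 3 of 35 such regions were higher, against 2 higher and 1 lower of 26 regions of SMAD targets and 2 lower of 10 of monocyte genes. Bach1, a repressor of heme oxygenase, was lower in Kupffer cells than in RLM, with 7.15 and 6.45 CPM in Kupffer cells, 18.0 and 21.5 CPM in RLM and 3.64 and 4.79 CPM in monocytes. General macrophage genes had 21 intervals at 8 of 20 genes, 7 of them at Runx1, and 4 regions were higher and 7 lower of 22 in Kupffer cells against monocytes. The median log2 fold change was 0.09, and against RLM 5 were higher and 6 lower (median 0.23). The strongest Mrc1 interval and the Lyz2 interval were not called in either comparison, while the Mrc1 interval described above was higher in both. The strongest Runx1 interval, with 175.0 and 158.0 SMAD4 tags per 10 M, had 0.477 and 0.293 CPM in Kupffer cells, 2.50 and 2.44 CPM in RLM and 5.62 and 3.14 CPM in monocytes. Cd14, the lipopolysaccharide coreceptor, had 2.50 and 4.22 CPM in Kupffer cells, 10.4 and 9.24 CPM in RLM and 18.6 and 14.6 CPM in monocytes (-2.24 ± 0.31, adjusted p = 3.78e-09). Genes of the NF-kB response had 9 intervals at 6 of 20 genes, and 2 of 12 regions were higher and none lower in Kupffer cells against monocytes by edgeR, with none lower at an unadjusted p under 0.05 or by DESeq2. Icam1, an adhesion molecule, was among the higher (1.64 ± 0.30, adjusted p = 3.53e-06). Tnf had 19.1 and 20.8 CPM in Kupffer cells, 21.2 and 20.0 CPM in RLM and 26.4 and 26.9 CPM in monocytes and was not called. Against RLM, 1 of the 12 regions of NF-kB response genes was higher and 3 were lower in Kupffer cells, with the same counts by DESeq2.

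RBPJ and LXR peaks, which the rule did not use, separated the classes. A reproducible RBPJ peak of BMDM stood over 88.5% of BMDM-only intervals (4262; exact binomial 95% interval 87.5% to 89.4%, counting error only), against 93.1% of shared and 41.0% of Kupffer-only intervals. An RBPJ peak of Kupffer cell nuclei stood over 1.56% (75; interval 1.23% to 1.95%), against 21.5% and 11.8%. The RBPJ lists held 80480 and 78976 peaks in BMDM, against 13394 and 11277 peaks in Kupffer nuclei, where 1.01% and 0.76% of tags lay in peaks, and the part of these short lists in the low share was not tested. An LXR peak of BMDM stood over 38.2% of BMDM-only intervals (1838; interval 36.8% to 39.5%), against 58.0% of shared and 19.1% of Kupffer-only intervals. An LXR peak of Kupffer cells stood over 9.84% (474; interval 9.01% to 10.7%), against 62.8% and 55.7%. The LXR lists held 42233 and 30354 peaks in BMDM and 41755 and 69824 peaks in Kupffer cells, and per the file headers, the second Kupffer list used an input that its header names for a NASH diet. With a peak in either list in place of both, the LXR share was 66.8% in BMDM and 28.6% in Kupffer cells, and the RBPJ share in Kupffer nuclei was 7.97%. LXR in BMDM without LXR in Kupffer cells was seen at 32.0% of BMDM-only intervals, against 14.4% of shared and 4.01% of Kupffer-only intervals. Neither RBPJ nor LXR was found in BMDM at 10.4% of BMDM-only intervals. Over the same 4 groups by SMAD4 tag count, the LXR share in BMDM was 24.0%, 30.4%, 40.3% and 58.0%, and the RBPJ share in BMDM was 80.2%, 85.7%, 93.0% and 94.9%. Shared intervals, grouped likewise, rose too, from 38.7% to 77.3% for LXR in BMDM and from 85.7% to 98.1% for RBPJ in BMDM. The LXR share in Kupffer cells moved little over BMDM-only intervals, at 8.71%, 9.39%, 9.30% and 12.0%, and rose from 54.4% to 73.6% over shared ones.

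**Figure D5:**
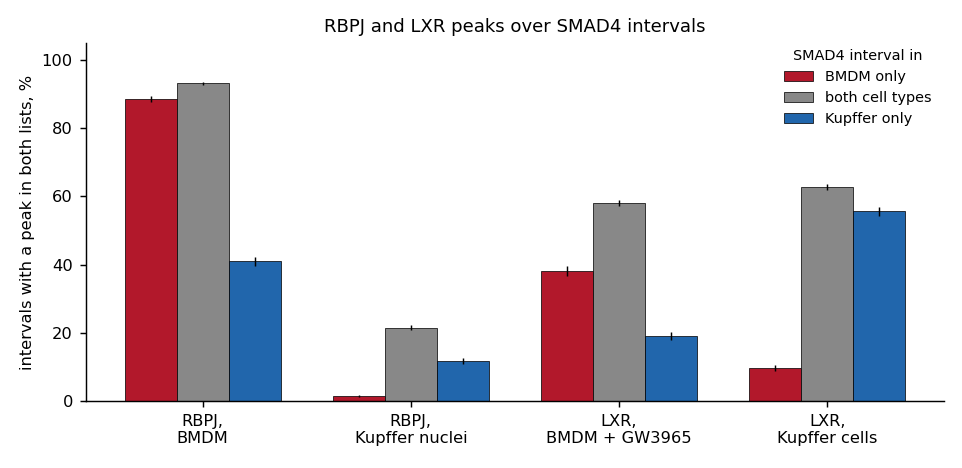
Percent of SMAD4 intervals of each class that overlap a peak found in both lists of RBPJ or LXR; error bars are exact binomial 95% intervals, which cover counting error only. BMDM-only intervals carry BMDM peaks of RBPJ (88.5%) and LXR (38.2%) but few Kupffer peaks of either (1.56% and 9.84%).

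LXR peaks also parted the H3K27ac values of the class. At the 1542 BMDM-only intervals with an LXR peak in BMDM and none in Kupffer cells, 37.8% of regions were lower in Kupffer cells than in monocytes and 16.6% were higher (median -0.68). At the 296 with an LXR peak in both, 14.9% were lower and 32.3% were higher (median 0.20), and at the 178 with one in Kupffer cells alone, 11.8% and 24.3% (median 0.04). Intervals with no LXR peak, 2801 in number, had 29.0% lower and 17.3% higher. Of all tested regions 17.7% were lower and 24.9% were higher. The lower share with LXR in both and the higher share with LXR in Kupffer cells alone were thus near the background. With an RBPJ peak in BMDM 30.7% of regions were lower and 18.4% were higher, and without one 22.1% and 20.6%. These splits are descriptions, and the differences between them were not tested.

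Motif letters could be counted where a window of 200 bp around an interval centre lay inside a promoter sequence, which held for 118 BMDM-only, 1104 shared and 305 Kupffer-only intervals, a small and proximal part of the class. Both strands were read, motifs may overlap, and 200 bp windows of 32544 promoters gave the background. AP-1 (TGANTCA) was found in 12.7% of BMDM-only windows, against 3.80% of shared, 3.93% of Kupffer-only and 5.48% of all promoter windows. The C/EBP motif TTGCNNA was found in 37.3%, against 20.0%, 19.7% and 26.9%, and the RUNX motif TGTGGTT in 5.93%, against 1.90%, 0.984% and 3.50%. GC-rich letters went the other way: the SP/KLF motif GGGCGGG was in 26.3%, against 49.9%, 49.5% and 22.2%, and the SMAD GC element GGCGCC in 10.2%, against 19.4%, 26.6% and 8.49%. The SMAD half-site CAGAC was found at 37.3%, against 37.6%, 35.1% and 35.4%, and so was as common in all promoters as in any class. The PU.1 motif GGAAGT was in 24.6%, against 30.5%, 25.2% and 16.7%, the E-box CACGTG in 11.0%, against 10.6%, 3.61% and 5.27%, and the RBPJ motif GTGGGAA in 3.39%, against 5.62%, 1.97% and 4.29%. The order of several shares changed with windows of 100 bp, of which 238 were BMDM-only. AP-1 was then in 9.24% of them, against 2.43% of shared and 3.01% of all promoter windows, the same order as before. C/EBP was in 16.0%, against 11.3% and 14.6%, and RUNX in 2.10%, against 0.912% and 1.71%, closer to all promoters than with 200 bp. The RBPJ motif turned, with 3.78% against 2.13% and 2.05%, as did PU.1 against shared windows (22.3% against 21.2%) and the SMAD GC element against all promoters (4.20% against 4.36%).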

How the data were processed

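Tags were aligned with Bowtie2 and peaks were found with HOMER on mm10, per the submitters' processing notes, which give no versions. Per the file headers, each peak list was called on 1 library at a false discovery rate of 0.001, with at least 4.00-fold over input and over the local 10000 bp. The lists give each peak's normalized tag count, a signal in tags per 10 M, and its fold over input, a ratio, as the authors deposited them. The H3K27ac tables hold raw counts of tags over 2000 bp regions, as deposited by the authors. Per the file headers, the second SMAD4 list and the first RBPJ list of Kupffer nuclei were called against the same input. The SMAD4 immunoprecipitations used DSG and formaldehyde crosslinking and the H3K27ac ones formaldehyde alone, per the labels' protocols.

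Counts were tested with edgeR 4.0.16 (quasi-likelihood, TMM, low counts filtered with filterByExpr) in R 4.3.3, fitting the groups of a table together. Of 84647 and 95038 regions, 80982 and 82089 were tested, with Benjamini-Hochberg adjustment over all of them. Called regions had an adjusted p under 0.05 and at least 2-fold change. SE is the log2 fold change divided by the root of the F statistic. CPM is tags per 1 M of the TMM-scaled total. Alternatives were DESeq2 1.42.0, total-tag scaling, no filter, left-out libraries, a replicate block, other overlaps and member choices. The edgeR step was tested on simulated data. Replicates of each group differed by more than sampling noise (chi-square per region of 2.91 to 4.72).

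Nearest genes came from RefSeq starts on GRCm38.p6 within 100 kb, with 2280 starts taken from the deposited distances. Starts of some predicted genes, such as Gm52482, were not among them. The gene equalled the deposited one for 78.5% of 4589 intervals. Members and gene lists were chosen with earlier results of these data known. Named members were the 10 with the most SMAD4 tags, up to 6 per H3K27ac comparison and direction with the largest fold among called regions whose libraries separate fully and whose mean CPM is above the median of called regions, and up to 4 genes per list with the strongest interval. Intervals on shares cover counting error only.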

Additional observations from a re-analysis of the deposited data

How the results depend on the processing

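The number of BMDM-only intervals was 2611 with BMDM peaks of at least 8-fold over input, and 5633 to 17948 when a single BMDM or Kupffer list was left out. With 1 of the LXR lists of BMDM left out the share of intervals with such a peak was 48.1% to 57.0%, and with a peak in either list it was 66.8%. For LXR in Kupffer cells these were 16.3% to 21.7% and 28.6%, and for RBPJ in Kupffer nuclei 4.19% to 5.21% and 7.97%. The share of regions lower in Kupffer cells than in RLM ranged from 14.4% to 21.6% over left-out libraries, with 14.4% without Kupffer replicate 2. Against monocytes the lower share ranged from 23.3% to 27.8% and the higher share from 15.1% to 18.1%. By DESeq2 the lower shares were 26.0% against monocytes, 20.0% against RLM, 12.4% for RLM against monocytes and 5.04% with DLL4. The numbers 1 and 2 did not pair the libraries (correlation of deviations -0.02 to 0.05), and with the replicate block 29.1% and 23.9% of regions were lower in Kupffer cells against monocytes and RLM, 13.9% in RLM against monocytes and 5.48% with DLL4. With 100 bp windows the motif shares of BMDM-only intervals were 21.0% for the SMAD half-site, 16.0% for C/EBP, 6.72% for the E-box, 4.20% for the SMAD GC element and 2.10% for RUNX. In these windows the RBPJ motif turned from less to more common than in shared and all promoter windows (3.78% against 2.13% and 2.05%), PU.1 turned against shared windows and the SMAD GC element against all promoters. The cause of these moves was not tested. Of the other values under alternatives, 117 main and 424 further ones stayed within 1.5 times. Regions with BMDM-only intervals alone, an alternative added after the data were seen, were lower in 33.6% and 29.0% against monocytes and RLM.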
